A study of Mus musculus with 4 samples.

Results

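In mouse pro-B cells of the 38B9 line, 187 of 22009 autosomal bins of 100 kb carried fewer total histone H3 reads than in each of 3 other mouse libraries. These bins cover 18.7 of 2201 Mb, or 0.850% of the bins compared. They were picked on the measured values themselves. For each library, the distinct read positions in a bin were divided by that library's median bin on the same chromosome and put on a log2 scale, called the H3 level here. A bin was a member when its pro-B level minus its level in every other library was -0.5 or lower. The bins had to average at least 100 distinct positions over the 4 libraries, and chromosome 8, chromosome 12 past position 113000000 and chromosome 6 from 67000001 to 71500000 were left out (mm8 coordinates throughout).

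The assay was ChIP-seq, in which DNA bound by H3 is precipitated with an antibody and sequenced, with 1 library per group. The pro-B library came from 38B9 cells in normal culture, a transformed cell line that stands for a stage at which B cell precursors rearrange their immunoglobulin heavy chain genes. The myotube library came from C2C12 cells, a myoblast line differentiated for 48 h in 2% horse serum with selenium, transferrin and insulin. The remaining pair of libraries came from V6.5 embryonic stem (ES) cells of C57BL/6-129 background, which are expanded on feeder fibroblasts and taken off them on gelatin for 2 passages. One was kept for 24 h in 10 uM SB431542, which blocks the kinase activity of type I TGF-beta receptors, and the other was untreated. The SB431542 library came from run 100804 and the other 3 from run 100623, so that treatment and run cannot be told apart.

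Histone H3 is a core component of the nucleosome, the unit that wraps DNA along the whole genome. A total H3 antibody therefore recovers DNA nearly everywhere, and the reads in a bin of 100 kb average over many nucleosomes, active and inactive genes and the DNA between them. Among other things, the number of reads depends on the copies of the DNA in a cell and the H3-bound DNA recovered from each copy. No input library was used here, so these cannot be told apart at any bin described below. Each group had a single library, no difference has a replicate check, and no test between conditions was possible. Intervals (95%) reflect counting error alone, and an SD over bins is a spread between places in the genome, not between samples. No gene was placed on a bin, because the annotation at hand is of another build.

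The kept bins held 12318912 distinct positions in the pro-B library, 11622133 in the myotube library, 12513251 in the SB431542 library and 12264316 in the untreated ES library. The median bin held 525, 538, 576 and 570 positions in the same order, so depth was similar. The pro-B levels were spread more widely across all bins, with an SD of 0.50 against 0.37 in myotubes, 0.33 in SB431542 ES cells and 0.35 in untreated ES cells. Bins past the same size in pairs of libraries were more frequent than the members. The pro-B level was lower by 0.5 or more than the myotube level in 2.55% of bins, than the SB431542 level in 3.10% and than the untreated ES level in 3.14%. These 3 comparisons share the pro-B library, and 0.850% of bins passed all of them. In the opposite direction, 1756 bins (7.98%) were higher in pro-B cells than in every other library by the same size. With the other libraries in the place of pro-B, 34 bins (0.154%) were lower in myotubes than in all the rest, 1 bin (0.00454%) was lower in untreated ES cells and 0 bins (0%) in SB431542 ES cells. The ES libraries come from the same line, and a bin low in both of them cannot meet this rule for either.

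Since the members were chosen on these levels, the following values describe them and test nothing. Over the 187 members, the median H3 level was -0.53 in pro-B cells, against 0.10 in myotubes, 0.11 in SB431542 ES cells and 0.14 in untreated ES cells. The distinct positions per member ranged from 1 to 488 with a median of 376 in the pro-B library. They ranged from 2 to 849 with a median of 575 in the myotube library, from 100 to 923 with a median of 621 in the SB431542 library and from 101 to 884 with a median of 629 in the untreated ES library. At their median, the members were thus low bins in pro-B cells and slightly rich bins elsewhere. Ranked among all kept bins, the median member stood at percentile 9.0 in pro-B cells, against 68.3 in myotubes, 70.5 in SB431542 ES cells and 73.6 in untreated ES cells. The level lay above the chromosome's median in 1 member in pro-B cells, against 126 members in myotubes, 129 in SB431542 ES cells and 143 in untreated ES cells.

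**Figure D1:**
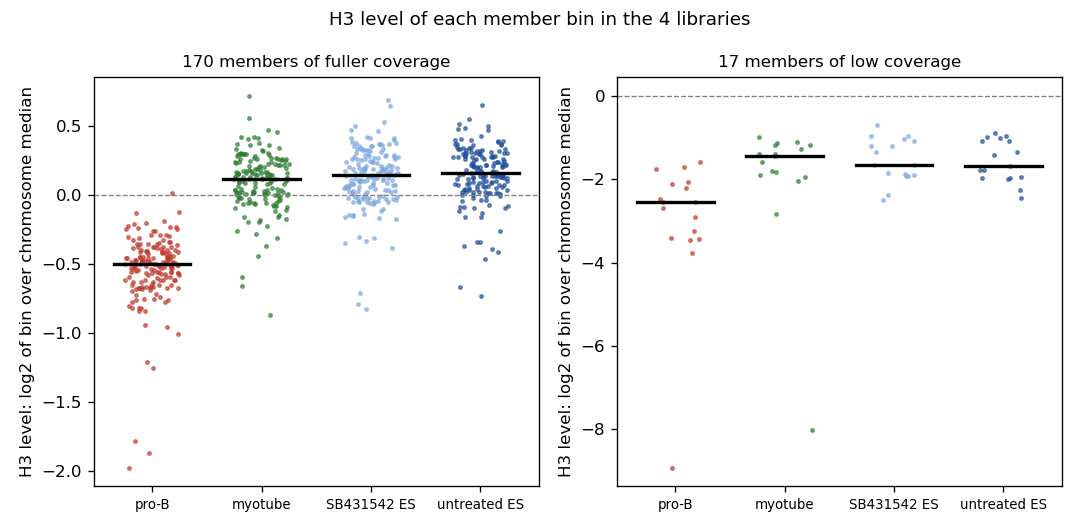
H3 level (log2 of the bin over the library's median bin on that chromosome) of every member in the 4 libraries, 1 point per bin with horizontal jitter and a black bar at the median; the left panel shows 170 members of fuller coverage and the right panel 17 of low coverage, on separate vertical scales. In the left panel the pro-B median is -0.50, against 0.12 in myotubes, 0.14 in SB431542 ES cells and 0.16 in untreated ES cells; in the right panel all 4 libraries lie below 0.

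The differences were moderate in size. The median pro-B difference over members was -0.60 from myotubes, -0.65 from SB431542 ES cells and -0.67 from untreated ES cells. In 121 of the 187 members the difference nearest to 0 lay between -0.5 and -0.6, and in 5 members the pro-B level was at least 2-fold below every other library. The library nearest to pro-B was the myotube library in 94 members, the SB431542 library in 53 and the untreated ES library in 40. Members not nearest to myotubes were thus divided between libraries of the same ES line. How all kept bins split was not counted. The ES libraries differed little from each other in the members, with a median SB431542 minus untreated difference of -0.04 (SD over bins 0.105, range -0.33 to 0.31). That median over all kept bins was 0.01 (SD over bins 0.115). The median myotube minus untreated ES difference in members was -0.05 (SD over bins 0.513, range -6.60 to 0.64), and 0.01 over all kept bins (SD over bins 0.221). In the 170 members of fuller coverage that SD was 0.136.

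Summed over members and scaled to all kept bins, the pro-B library held 0.605 times the positions of the myotube library (interval 0.599 to 0.611). It held 0.599 times those of the SB431542 library (0.594 to 0.605) and 0.589 times those of the untreated ES library (0.583 to 0.594). As a share of the library, the members took 0.533% of the pro-B positions, 0.882% of the myotube positions, 0.890% of the SB431542 positions and 0.906% of the untreated ES positions. On the same scale the SB431542 to untreated ES ratio in members was 0.982 and the myotube to untreated ES ratio was 0.973. The rule asks for a distance from each of the other 3 libraries, so similar pro-B ratios follow in part from the choice. In these sums the other 3 lay within a few percent of each other, which need not hold in single members.

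A low pro-B level alone did not make a bin a member. In all, 2191 bins had a pro-B level of -0.5 or lower, of which 106 were members. The other 2085 were, at their median, low in all 4 libraries, with a level of -0.71 in pro-B cells, against -0.57 in myotubes, -0.53 in SB431542 ES cells and -0.59 in untreated ES cells. The remaining 81 members had a pro-B level above -0.5 and qualified because the bin was rich in the other libraries. An example is chr4:146300001-146400000, with 488 positions in pro-B cells, 849 in myotubes, 912 in SB431542 ES cells and 884 in untreated ES cells. It is the 1 member whose pro-B level, 0.01, was above the chromosome's median, and the level was 0.72 in myotubes, 0.69 in SB431542 ES cells and 0.65 in untreated ES cells.

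The bins next to the threshold show how gradual the limit was. Just inside it, chr2:168800001-168900000 had 380 positions in pro-B cells, 543 in myotubes, 574 in SB431542 ES cells and 623 in untreated ES cells, and its difference nearest to 0 was -0.50. The next members, chr9:47600001-47700000 and chr10:76600001-76700000, had 355 and 398 positions in pro-B cells. In the other libraries, the chromosome 9 bin had between 509 and 610 positions and the chromosome 10 bin between 590 and 679. Just outside it, chr14:8000001-8100000 had 409 positions in pro-B cells, 571 in myotubes, 608 in SB431542 ES cells and 572 in untreated ES cells. The bins chr13:98800001-98900000 and chr12:28800001-28900000 followed, with 407 and 368 positions in pro-B cells. In the other libraries the chromosome 13 bin had between 644 and 659 positions and the chromosome 12 bin between 546 and 594. Over these 6 bins the ratios of pro-B to each other library, scaled to the chromosome's median bin, ran from 0.599 to 0.708. The counts on either side of the threshold cannot be told apart at this depth.

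The members were unevenly spread over the genome. Chromosome 16 held 34 members among 948 bins (3.59%), chromosome 17 held 13 among 902 (1.44%) and chromosome 14 held 16 among 1117 (1.43%). Chromosome 1 had 26 among 1906 bins (1.36%), and chromosome 6 had 0 among 1404.

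**Figure D2:**
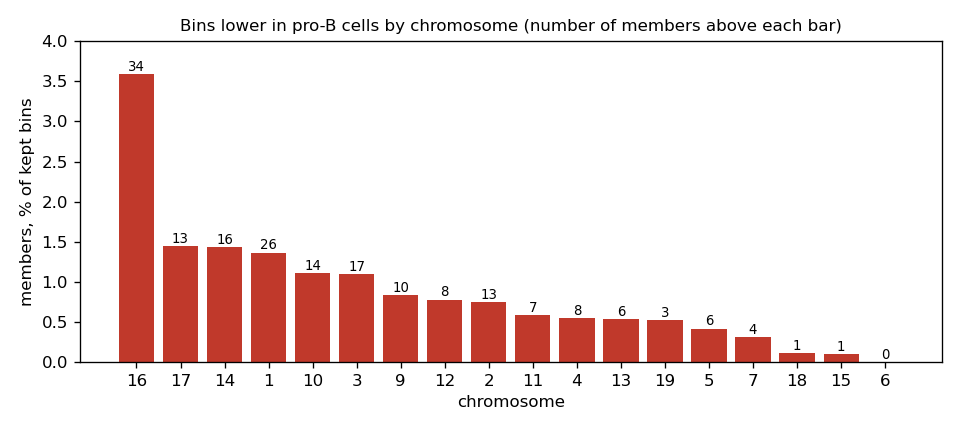
Members as a percentage of the kept bins on each of 18 autosomes, ordered by that percentage, with the number of members above each bar. Chromosome 16 stands highest with 34 members (3.59%), and chromosome 6 has 0.

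Most of the chromosome 16 members lay near its centromeric end, where mouse chromosome coordinates begin. Its first 10 Mb held 29 of the 34, which is 29.6% of the 98 bins there, against 5 of 850 bins (0.588%) on the rest of the chromosome. In that part 70 of 98 bins were below every other library in pro-B cells, against 299 of 850 on the rest of the chromosome. The 29 members among the 70 are so by the rule. The median level there was -0.47 in pro-B cells, against 0.00 in myotubes, 0.00 in SB431542 ES cells and 0.05 in untreated ES cells. On the rest of chromosome 16 the median pro-B difference was 0.03 from myotubes, 0.04 from SB431542 ES cells and 0.03 from untreated ES cells.

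The chromosome 16 result leans on scaling within the chromosome. The median chromosome 16 bin held 591.5 positions in pro-B cells, the highest of the 18 autosomes in that library, against 525 over all autosomes. When each library was scaled to its median bin of all autosomes, 151 bins met the rule, of which 123 were shared with the 187. Only 11 chromosome 16 bins then met it, 9 of them in the first 10 Mb. On that scale the median difference in the first 10 Mb was -0.25 from myotubes, -0.28 from SB431542 ES cells and -0.31 from untreated ES cells. The rest of the chromosome then stood at 0.16, 0.18 and 0.20. The change of scale moves all bins of a chromosome by the same amount, so the gap between these parts could not change. The differences in the first 10 Mb were smaller on that scale. Summed over its bins, the pro-B ratio was 0.959 to myotubes, 0.938 to SB431542 ES cells and 0.928 to untreated ES cells. Without chromosome 16, 153 of 21061 bins (0.727%) were members.

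The other chromosome ends did not stand out in the same way. The first 10 Mb of the chromosomes held 43 members (23.0%) with 7.90% of the bins, but without chromosome 16 they held 14 (9.15%) with 7.79% of the bins. The last 10 Mb held 13 members (6.95%) with 7.91% of the bins.

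The members formed few long unbroken blocks. They fell into 122 runs of adjoining bins, of which 88 were single bins, 23 were pairs and 11 had 3 members or more. Those 11 runs held 53 members. The longest, chr1:90300001-91100000, had 8 members with 2989 positions in pro-B cells, 4983 in myotubes, 5055 in SB431542 ES cells and 5175 in untreated ES cells. Scaled to the chromosome's median bin, its ratio of pro-B to the others was 0.617 for myotubes, 0.627 for SB431542 ES cells and 0.602 for untreated ES cells. The next was chr16:6900001-7600000, with 7 members and 2738 positions in pro-B cells, 4202 in myotubes, 4518 in SB431542 ES cells and 4281 in untreated ES cells.

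The other 8 of the 10 longest runs were smaller. They were chr1:91300001-91900000 with 6 members, chr3:102000001-102500000 and chr16:9400001-9900000 with 5 each, and chr14:10300001-10700000, chr16:3700001-4100000, chr1:92000001-92400000 and chr16:6300001-6700000 with 4 each. The last was chr3:101400001-101700000 with 3. Over the 10 runs, the ratio of pro-B to another library lay between 0.553 and 0.679. The lowest, 0.553, was the chromosome 14 run against SB431542 ES cells (1558 against 2852 positions; interval 0.520 to 0.589) and the chromosome 16 run from 3700001 against untreated ES cells (1532 against 2680; 0.519 to 0.589). The highest, 0.679, was the chromosome 16 run from 6300001 against untreated ES cells (1638 against 2336; 0.637 to 0.723).

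Several of these runs lay close together, separated by bins that missed the threshold. Members at most 500 kb apart, a distance chosen after the values had been seen, formed 83 stretches, of which 46 were single bins. The 4 stretches with the most members held 51 of the 187 (27.3%). In all 4, every bin from the first to the last member was below all 3 other libraries in pro-B cells, members or not. For members this follows from the rule, and the bins that were not members numbered 3, 7, 3 and 2.

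The stretch with the most members was chr1:90300001-92400000, 2.1 Mb with 18 members among 21 bins. Its bins held 7815 positions in pro-B cells, 13269 in myotubes, 12891 in SB431542 ES cells and 13513 in untreated ES cells. The scaled ratio of pro-B to the others was 0.606 for myotubes (interval 0.589 to 0.623), 0.643 for SB431542 ES cells (0.625 to 0.661) and 0.602 for untreated ES cells (0.586 to 0.619). The 3 bins inside it that were not members had median differences of -0.75 from myotubes, -0.48 from SB431542 ES cells and -0.66 from untreated ES cells. The SB431542 library was itself slightly below the untreated one here, with a ratio of 0.937 (0.915 to 0.960), while the ratio of myotubes to untreated ES cells was 0.995 (0.971 to 1.019).

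The longest stretch, chr16:5600001-7900000, spanned 2.3 Mb with 16 members among 23 bins. It held 8852 positions in pro-B cells, 13167 in myotubes, 13633 in SB431542 ES cells and 13160 in untreated ES cells. The scaled ratio of pro-B to the others was 0.631 for myotubes, 0.644 for SB431542 ES cells and 0.651 for untreated ES cells. With all autosomes as the scale it was 0.689, 0.712 and 0.730 in the same order, and 5 of its bins met the rule. By contrast, 16 of the bins in the chromosome 1 stretch met the rule on that scale, with ratios of 0.604, 0.665 and 0.628.

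The third stretch, chr3:101200001-102500000, had 10 members among 13 bins and 5264 positions in pro-B cells, against 7998 in myotubes, 8991 in SB431542 ES cells and 9082 in untreated ES cells. Its pro-B ratio was 0.692 to myotubes, 0.650 to SB431542 ES cells and 0.623 to untreated ES cells. Here the myotube level was also below the untreated ES level, with a ratio of 0.900 (0.874 to 0.928). The fourth, chr16:9200001-10100000, had 7 members among 9 bins and 3460 positions in pro-B cells, against 4857 in myotubes, 5587 in SB431542 ES cells and 5437 in untreated ES cells. With all autosomes as the scale, 10 bins of the chromosome 3 stretch and 1 bin of this chromosome 16 stretch met the rule.

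**Figure D3:**
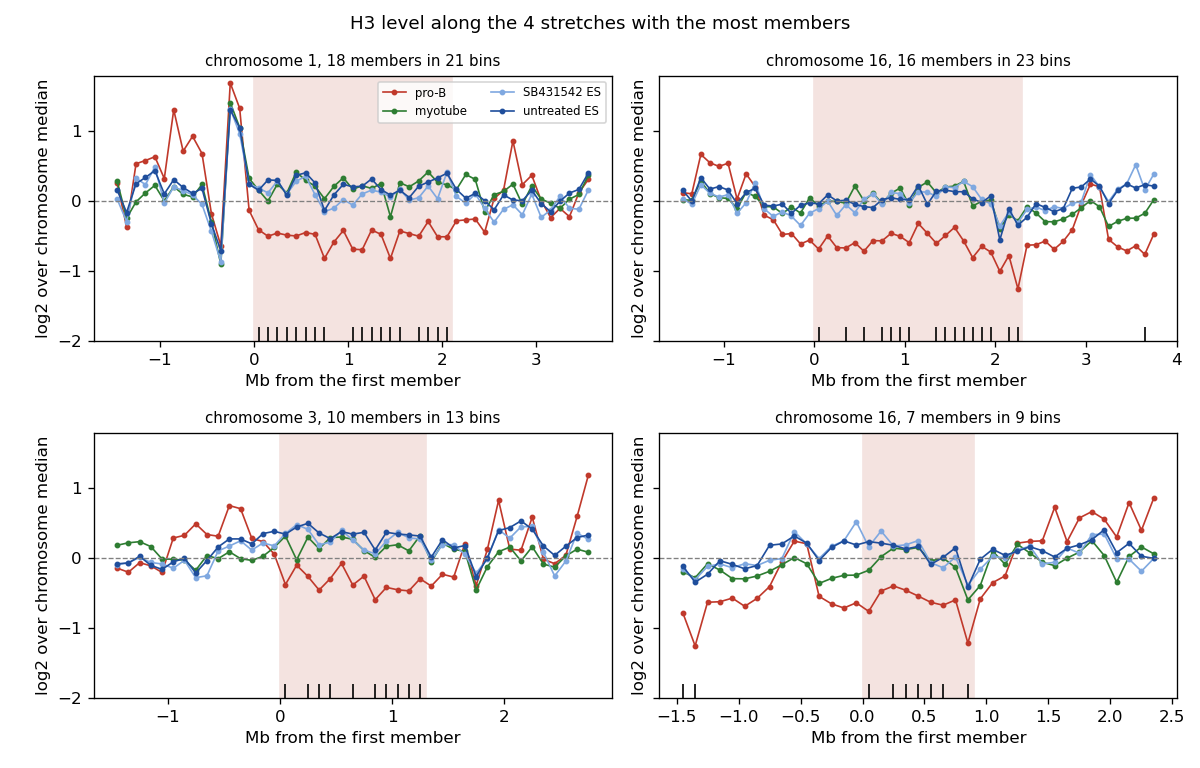
H3 level (log2 of each 100 kb bin over the library's median bin on the chromosome) along the 4 stretches with the most members and 1.5 Mb on either side, against the distance in Mb from the first member, with 1 line per library; shading marks the stretch and ticks at the bottom mark members. Inside the shading the pro-B line lies below the other 3 lines in every bin, while outside it the pro-B line returns to the level of the others or above it in places.

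Pro-B was also the lowest library throughout the smaller stretches given here. The stretches chr3:27700001-28700000 and chr16:3500001-4100000 had 5 members each, among 10 and 6 bins. In the chromosome 3 stretch the ratio of pro-B to the others was 0.682 for myotubes, 0.714 for SB431542 ES cells and 0.671 for untreated ES cells. In the chromosome 16 stretch it was 0.641, 0.579 and 0.540 in that order, and the myotube to untreated ES ratio was 0.843. The stretch chr9:46900001-47700000 had 4 members among 8 bins, with 3050 positions in pro-B cells, 4371 in myotubes, 5071 in SB431542 ES cells and 5193 in untreated ES cells. All 10 bins of the first of these, all 6 of the second and all 8 of the third were below every other library in pro-B cells. For members this follows from the rule, and the bins that were not members numbered 5, 1 and 4.

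Bins around the members were low in pro-B cells as well. The 214 bins 0.1 Mb away had median pro-B differences of -0.42 from myotubes, -0.46 from SB431542 ES cells and -0.46 from untreated ES cells. Of these, 197 (92.1%) were below all 3. The median difference from untreated ES cells was -0.38 at 0.2 Mb, -0.33 at 0.3 Mb, -0.29 at 0.4 to 0.5 Mb, -0.16 at 0.6 to 1 Mb and -0.04 at 1.1 to 2 Mb. Beyond 5 Mb it was 0.08, and 29.7% of the bins there were below all 3. The lower pro-B level thus extended past the edges of the members.

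**Figure D4:**
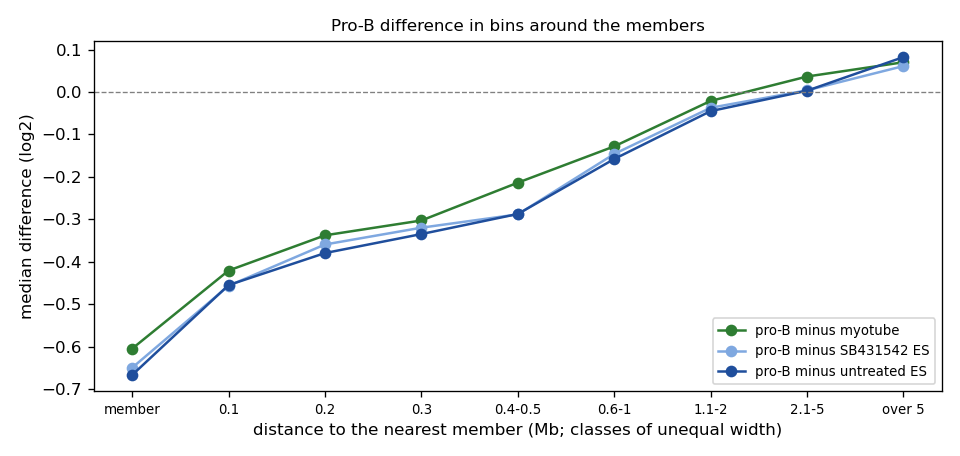
Median pro-B difference in H3 level (log2) from each of the other 3 libraries, for members and for bins at increasing distance from the nearest member, in Mb with classes of unequal width. The 3 lines rise together, for untreated ES cells through -0.67 in members and -0.29 at 0.4 to 0.5 Mb to 0.08 beyond 5 Mb.

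Within members, the low level ran along the bin. Each bin was cut into 10 parts of 10 kb, and the level was lowest in pro-B cells in 1718 of 1870 parts (91.9%, interval 90.5 to 93.1). Over all kept bins it was lowest in pro-B cells in 62952 of 220090 parts (28.6%). All 10 parts were lowest in pro-B cells in 103 members, at least 8 parts in 171 members and 4 parts or fewer in 3 members. These parts hold the same reads that chose the bins, so the high share follows in part from the choice. What it adds is that few members owed their place to a gap in 1 part of the bin.

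**Figure D5:**
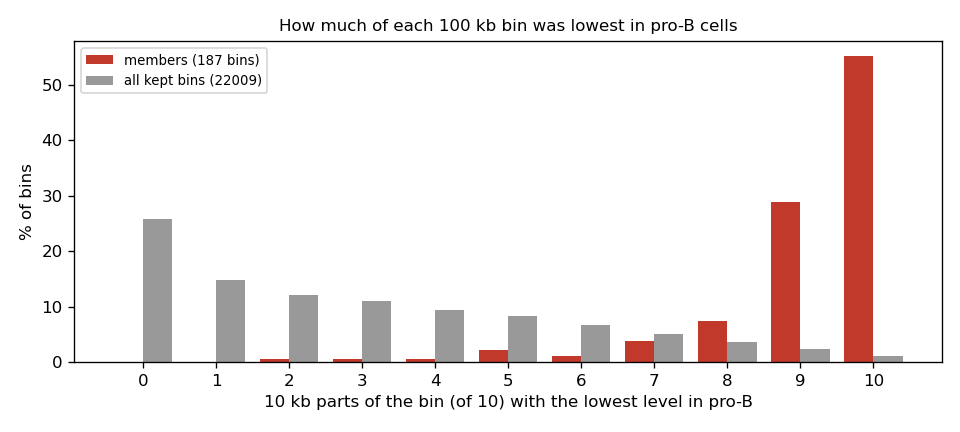
Percentage of bins by the number of their 10 kb parts, of 10, in which the level was lowest in pro-B cells, for the 187 members and for all 22009 kept bins. The members pile up at 9 and 10 parts, and all 10 parts were lowest in 103 of them.

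Read positions that had no part in the choice were examined next. Bins were chosen by the same rule on plus-strand positions alone and measured on minus-strand positions of the same libraries. The rule picked 241 bins, whose median difference from untreated ES cells was -0.68 on the plus strand and -0.60 on the minus strand (interval -0.62 to -0.55). On the minus strand the median was -0.53 from myotubes and -0.55 from SB431542 ES cells. The pro-B level was below all 3 other libraries there in 234 of the 241 bins, and 99 met the rule again. Over all kept bins the minus-strand median was 0.03 from myotubes, 0.02 from SB431542 ES cells and 0.04 from untreated ES cells. The share of all kept bins below all 3 on 1 strand was not counted. With the strands exchanged, 250 bins were picked, the median difference from untreated ES cells was -0.68 on the choosing strand and -0.57 on the other, 247 bins were below all 3 and 96 met the rule again. Most of the difference was therefore present on positions that the choice did not use, though it was smaller there than on the choosing strand. Both strands come from the same libraries and the same DNA, so the exchange checks counting error and not the reproducibility of the cells.

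Reads with 2 places in the genome were also outside the rule. In members they made 5058 lines in pro-B cells, 8520 in myotubes, 9101 in SB431542 ES cells and 8449 in untreated ES cells. Scaled to the 2-place lines of all kept bins, the ratio of pro-B to the others was 0.592 for myotubes (0.572 to 0.613), 0.615 for SB431542 ES cells (0.594 to 0.637) and 0.624 for untreated ES cells (0.603 to 0.646). The same ratio was 1.015 for SB431542 over untreated ES cells (0.985 to 1.045) and 1.054 for myotubes over untreated ES cells (1.023 to 1.086). Among members with at least 10 such lines in the pair of libraries, pro-B was the lower in 123 of 157 against myotubes, 130 of 166 against SB431542 ES cells and 122 of 160 against untreated ES cells. Without the low-coverage members described below, it was 106 of 140, 113 of 149 and 105 of 143. The share over all kept bins was not counted, so these counts have no background beside them. Repeats were kept among these lines, and each such read is listed at both of its places. Lines are therefore not independent and the intervals are too narrow.

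A small subset of the members differed from the rest in coverage. In 17 members (9.09%) the mean level of the 4 libraries was under 0.5 of the chromosome's median, against 504 of all kept bins (2.29%). Their median number of positions was 96 in pro-B cells, against 154 in myotubes, 187 in SB431542 ES cells and 177 in untreated ES cells. Summed over these members, reads with 2 places made up 59.8% of the lines in pro-B cells and 56.6% in myotubes. The share was 55.0% in SB431542 ES cells and 54.1% in untreated ES cells. In the other 170 members that share was 4.15%, 4.44%, 4.21% and 3.92%, and over all kept bins it was between 5.31% and 5.76%. Not every low-coverage member was rich in such reads. In chr17:7300001-7400000 there were 7 such lines beside 159 positions in pro-B cells, and 9 beside 232 in myotubes. That bin held 12 beside 285 in SB431542 ES cells and 10 beside 264 in untreated ES cells. A bin rich in such reads has a sequence that occurs elsewhere in the genome, so that its 1-place positions sample only a part of it. The part of duplicated sequence in the differences of these 17 bins was not tested.

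The low-coverage members also had the lowest ratios. Summed over the 17, 1-place positions gave a ratio of pro-B to the others of 0.486 for myotubes, 0.437 for SB431542 ES cells and 0.444 for untreated ES cells. In the 170 fuller members it was 0.609, 0.605 and 0.593 in the same order. The 2-place lines gave 0.585, 0.578 and 0.586 in the 17, and 0.599, 0.650 and 0.660 in the 170. The sums over the 170 leaned on a few bins rich in such lines. The chromosome 4 bins from 144700001, 144800001 and 146300001 held 181, 410 and 244 of the 2776 lines in pro-B cells. They held 481, 946 and 547 of 4626 in myotubes and 495, 887 and 521 of 4731 in SB431542 ES cells. In untreated ES cells they held 424, 795 and 509 of 4389. The ratios without these bins were not computed. In the low-coverage bins pro-B had fewer 2-place lines than each other library in 17 of 17. How often this held in all kept bins of low coverage was not counted.

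Of the 5 members with the lowest values of the difference nearest to 0, 4 belonged to this subset. The lowest, chr13:61900001-62000000, held 38 positions in pro-B cells, 207 in myotubes, 159 in SB431542 ES cells and 147 in untreated ES cells. Its 2-place lines were also fewer in pro-B cells, at 139, against 174 in myotubes, 209 in SB431542 ES cells and 216 in untreated ES cells. The 2-place contrast in this bin was smaller than the 1-place contrast. On chromosome 7, chr7:38000001-38100000 held 44 positions in pro-B cells, 132 in myotubes, 175 in SB431542 ES cells and 143 in untreated ES cells. The bin chr7:39000001-39100000 held 73, 153, 263 and 280 in that order.

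The fourth of these bins, chr4:144800001-144900000, held 123 positions in pro-B cells, 492 in myotubes, 347 in SB431542 ES cells and 355 in untreated ES cells. Summed over the 4 libraries it had the most 2-place lines of any member, 410 in pro-B cells, 946 in myotubes, 887 in SB431542 ES cells and 795 in untreated ES cells. Its neighbour chr4:144700001-144800000 was also a member, with 141 positions in pro-B cells, 327 in myotubes, 319 in SB431542 ES cells and 339 in untreated ES cells. In the first of this pair the myotube level was -0.07 and lay above both ES levels, -0.71 with SB431542 and -0.67 without, so the libraries other than pro-B did not share a level there. The fifth, chr3:93900001-94000000, held 47 positions in pro-B cells, 151 in myotubes, 109 in SB431542 ES cells and 114 in untreated ES cells.

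One low-coverage member owed its place to a near absence of reads in 2 libraries. The bin chr4:111600001-111700000 held 1 position in pro-B cells and 2 in myotubes, against 221 in SB431542 ES cells and 211 in untreated ES cells. The ratio of pro-B to myotubes there was 0.534 with an interval of 0.00904 to 10.3, so the counts do not show that pro-B was the lower of these 2. Against untreated ES cells the ratio was 0.00551 (0.000139 to 0.0311) in pro-B cells and 0.0103 (0.00124 to 0.0378) in myotubes. Its 2-place lines numbered 14 in pro-B cells, 22 in myotubes, 36 in SB431542 ES cells and 23 in untreated ES cells.

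At a finer scale, the members had an even read profile in pro-B cells. The spread of 1 kb counts beyond counting error, as a squared coefficient of variation, had a median of 0.103 in the 170 fuller members in the pro-B library, against 0.198 in other bins of fuller coverage. In myotubes the medians were 0.0998 in members and 0.142 in other bins, in SB431542 ES cells 0.0912 and 0.146, and in untreated ES cells 0.0882 and 0.139. The members were thus more even than other bins in all 4 libraries. Fuller bins that had a pro-B level of -0.5 or lower but were no members numbered 1600 and were, at their median, more uneven than these in all 4 libraries, at 0.480 in pro-B cells, 0.471 in myotubes, 0.488 in SB431542 ES cells and 0.465 in untreated ES cells. The 1 kb counts hold the same reads that chose the bins, and the part of the choice in these contrasts was not tested.

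Narrow sites higher in pro-B cells were not found in the members. A window of 1 kb was counted as such when it held at least 20 positions in pro-B cells and, after scaling, at least 3 times as many as any other library. There were 0 of 18700 windows in the members, which allows a share of up to 0.0160%. Over all kept bins there were 3688 of 2200900 (0.168%), in 2028 bins. The count that defines a window is part of the count that makes a bin low, so members could hold such windows less easily than other bins. In members there was 1 such window for SB431542 ES cells, and 0 for myotubes and for untreated ES cells.

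Other features of the reads themselves were compared between members and other kept bins of the same library. Repeated reads, those at a position and strand already counted, made up 2.11% of 1-place reads in members in the pro-B library (2.00 to 2.22), against 2.83% in other bins. In SB431542 ES cells the shares were 5.51% in members and 5.51% elsewhere. They were 3.33% and 3.44% in myotubes, and 2.70% and 2.83% in untreated ES cells. Members were chosen for few distinct positions in pro-B cells, and the part of that choice in the repeat shares was not tested. The spacing of plus-strand and minus-strand positions, which reflects fragment length, differed between members and other bins by no more than the members' intervals. Pairs 51 to 75 bp apart, per bp and relative to pairs 301 to 499 bp apart, were 1.32 times as frequent in pro-B members (1.26 to 1.38) and 1.31 times in other pro-B bins. The ratio was 1.19 in members and 1.22 elsewhere in myotubes, 1.23 and 1.24 in SB431542 ES cells, and 1.19 and 1.23 in untreated ES cells.

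The number of members depended on the centre of the scale. Scaled to the median bin of the chromosome, 187 bins were lower and 1756 higher in pro-B cells than in every other library, so that 9.62% of these were lower. Scaled to the mean bin of the chromosome, 548 were lower and 977 higher, and 35.9% were lower. The median pro-B difference over all bins was 0.04 from myotubes, 0.02 from SB431542 ES cells and 0.04 from untreated ES cells on the first scale, and -0.09 from each on the second. All 187 members were among the 548.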

How the data were processed

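Total H3 ChIP-seq of 4 libraries was used. Per the labels' protocols, extracts were sonicated to about 500 bp, amplified with 18 PCR cycles and gel-selected at 150 to 300 bp (inserts of 50 to 200 nt). Reads were aligned to mm8 with Bowtie (-e 70 -k 2 -m 2 -n 2 -l 36 --best), per the file headers; its version is not given in the sources used here. The deposited files list 1 signed position per read, without counts, scores or normalisation by the authors. They have a section for 1 place and one for 2 places, which is a reading inferred from the section names and options. Columns of other samples numbered 0.

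Here, with Python 3.11.15, NumPy 2.4.6, pandas 2.3.3 and SciPy 1.17.1, repeats of a position and strand were removed, and 1-place positions were counted in bins of 100 kb. Repeats were kept among the 2-place lines. Ratios have exact conditional binomial intervals and shares exact Clopper-Pearson intervals (95%); intervals of medians rest on order statistics over bins. A count of 0 was taken to allow 3. Ratios over members were scaled to all kept bins, and those of runs, stretches and bins to the chromosome's median bin. The counting was tested on simulated data.

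The members, lists and rules were chosen with earlier results of these data known. Named items were the 10 longest runs, the 5 members lowest in the difference nearest to 0, 3 bins on each side of the threshold, and the 3 chromosomes with the most members per bin and those with none; stretches, their flanks and other named bins were chosen after their values were seen. Alternatives varied repeats, sections, scaling, threshold, coverage minimum, bin offset and the libraries in the rule. Genes and sequences were not analysed here, since the annotation at hand is of GRCm38.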

Additional observations from a re-analysis of the deposited data

How the results depend on the processing

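Of 71 alternative values, 36 stayed close to the reported one, 35 moved and 0 reversed. A reversal was looked for only in median differences, whose sign the rule fixes in most settings. The 0 is therefore no sign of stability, and the causes of the moves were not tested. Member counts were 548 with chromosome means as the scale, 497 at a threshold of -0.4, 66 at -0.6 and 459 without the myotube library. Without the untreated ES library the count was 237 and without the SB431542 library 239. Runs of 3 or more numbered 7 with the median of all autosomes as the scale, 51 with chromosome means, 46 at -0.4, 2 at -0.6, 43 without the myotube library and 7 without chromosome 16 (added after seeing the data). Runs of 2 or more numbered 34.

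The median difference from untreated ES cells was -0.58 at -0.4, -0.78 at -0.6, -0.63 without the SB431542 library, -0.62 without the untreated ES library and -0.64 without the myotube library. The 2-place ratio of pro-B to untreated ES cells was 0.658 when repeats were kept in the choice of bins. Repeats among the 2-place lines themselves were kept in every setting, the main one included. With both sections in the rule the ratio was 0.519. There the 2-place reads helped to choose the bins, so the low ratio follows in part from the choice. The ratio was 0.701 with chromosome means, 0.697 at -0.4, 0.564 at -0.6 and 0.587 with bins shifted by 50 kb. Without the 17 low-coverage members (added after seeing the data) it was 0.660.

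The share of 10 kb parts lowest in pro-B cells was 90.4% with both sections, 90.5% with all autosomes as the scale, 93.1% with chromosome means, 89.4% at -0.4 and 89.9% at -0.6. It was 90.4% at a mean of 50 positions and 93.8% at 200. Without the SB431542 library it was 94.2%, without the untreated ES library 94.3% and without the myotube library 93.7%. Where a library was left out, a part was compared only with those still in the rule, which is easier to meet. Parts of 20 kb gave 96.9%, and the 170 fuller members gave 94.9%.

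No paired analysis was possible because each group has 1 library. A member held a median of 376 positions in pro-B cells, so a single bin near the threshold cannot be placed on either side of it, and the depth limits statements to runs, stretches and sums.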
